A study of Mus musculus with 13 samples.

Results

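The livers compared here are those of mice in which the common bile duct had been tied off (bile duct ligation, BDL), and the comparison sets an oligonucleotide that blocks the microRNA miR-873-5p (anti-miR-873-5p BDL) against a control oligonucleotide (miR-Ctrl BDL). The members are the 6 mice in the deposited count table of these 2 groups, 3 per group, of 13 mice in the whole series. They are C57 mice aged 3 months, all with BDL, and they differ by the oligonucleotide given after surgery. The table holds miR-Ctrl BDL mice 1, 2 and 4 and anti-miR-873-5p BDL mice 1, 3 and 4. Mouse 3 of miR-Ctrl BDL and mouse 2 of anti-miR-873-5p BDL were sequenced as well, and both are present in the tables that set each BDL group against 5 mice without ligation (no BDL). The supplementary methods provide for the removal of outlying samples, if there were any, and name no mouse. The deposited count table of the 2 BDL groups is labelled as without outliers, and these 2 mice are the ones it lacks. The values of the 2 absent mice are given beside part of the results they touch. A number is unique only within its group, so mouse 1 of each group is another animal.

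The study asks whether blocking miR-873-5p during cholestasis changes the liver, since it reports that this microRNA represses glycine N-methyltransferase. BDL stops bile flow, so that bile acids build up in the liver, hepatocytes are damaged, bile ductules multiply and collagen is laid down around them. Hepatocytes answer a bile acid load by lowering their synthesis of bile acids from cholesterol, which starts with the 7-alpha-hydroxylase encoded by Cyp7a1 and branches at the 12-alpha-hydroxylase encoded by Cyp8b1. Glycine N-methyltransferase, encoded by Gnmt, uses S-adenosylmethionine to methylate glycine and so sets how much methyl donor a hepatocyte holds. Peroxisome proliferator-activated receptor alpha (PPARα) is the nuclear receptor that turns on fatty acid oxidation and the Cyp4a omega-hydroxylases in the liver. MicroRNAs bind messages mainly through the bases 2 to 8 of their 5′ end, the seed, and lower the level or translation of those messages. Tied-off ducts model an acute and complete obstruction, the oligonucleotide reaches every cell type that takes it up, and RNA of whole liver holds hepatocytes, duct cells, stellate cells and immune cells together. In such RNA, fewer cells of a type and less RNA per cell cannot be told apart.

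The microRNA and its pairing sites are shown first, because the letters that the blocked seed pairs with define the messages on which a direct effect would be read. The mature mouse sequence, from RefSeq on GRCm38.p6, lies at chr4:36668556-36668576 on the minus strand, and its capitals mark the seed.
mmu-miR-873a-5p: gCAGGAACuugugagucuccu
A message pairs with this seed over the letters GTTCCTG. Of the 34 genes named below for a low edgeR p or a DESeq2 call that have an annotated 3′ UTR, 5 hold these letters in it. Each site is printed as 22 bases of the sense strand of GRCm38, with the seed match in capitals, and the coordinates and strands follow the sequences.
Cpt1a: cctcacaaGTTCCTGcatagag
Cyp7a1: ctgctcacGTTCCTGgggattc
Plekha6: gaagcctgGTTCCTGgctggga
Sik1: ctcccataGTTCCTGtctggat
Uxs1: tttctgtaGTTCCTGgctcttg
The sites lie in the 3′ UTRs at chr19:3384527-3384548 on the plus strand for Cpt1a, chr4:6268061-6268082 on the minus strand for Cyp7a1 and chr1:133302436-133302457 on the plus strand for Plekha6. Those of Sik1 and Uxs1 lie at chr17:31844699-31844720 and chr1:43747997-43748018, both on the minus strand. Cpt1a, Cyp7a1 and Plekha6 had higher and Sik1 and Uxs1 had lower means in anti-miR-873-5p BDL, as described with their values below. A match of letters is a description of the sequence and not evidence of binding.

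The gene counts of the 6 mice added up to 13483226 to 15163990 reads each (median 13945845). After removal of genes with low counts, 13746 genes were tested. Values of single genes below are normalized counts, that is CPM (counts scaled to a common library total) after scaling of the libraries with edgeR's TMM method, and the fold changes are anti-miR-873-5p BDL relative to miR-Ctrl BDL on the log2 scale. With edgeR's quasi-likelihood test, 0 genes (0% of those tested) were past a Benjamini-Hochberg adjusted p of 0.05, and the lowest adjusted p was 0.757. At an unadjusted p under 0.05 the same test held 863 genes, of which 510 were higher (3.71% of all tested) and 353 were lower (2.57%). Scaling by total counts alone, which shifted the median of all log2 fold changes from 0.01 to 0.05, gave 494 higher and 218 lower. DESeq2's Wald test called 29 genes at an adjusted p of 0.05, 19 of them higher (0.138% of all tested) and 10 lower (0.0727%), while limma voom called 0. The 3 mice of anti-miR-873-5p BDL all lay above the 3 mice of miR-Ctrl BDL for 906 genes (6.59%) and all below for 656 genes (4.77%). Each of the 29 genes called by DESeq2 was among these genes without overlap. The log2 fold change was within 0.5 of 0 for 12298 genes, above 1 for 148 genes and below -1 for 126 genes. All comparisons are between separate mice, and with 3 against 3 an exact two-sided permutation test of a single gene cannot give a p below 0.1.

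**Figure D1:**
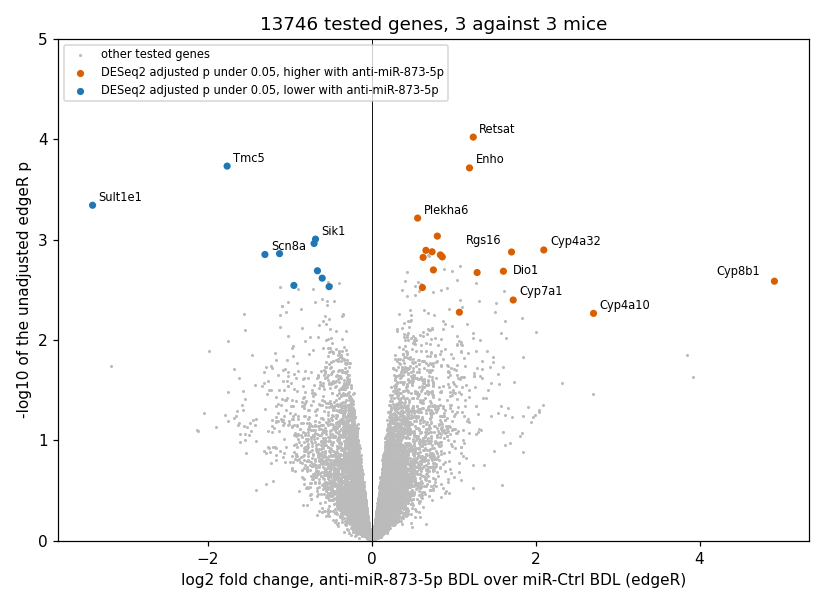
Log2 fold change of anti-miR-873-5p BDL over miR-Ctrl BDL (x axis) against -log10 of the unadjusted edgeR p (y axis) for the 13746 tested genes, with 1 point per gene. The 19 genes higher (orange) and 10 genes lower (blue) in DESeq2 at an adjusted p of 0.05 stand in the upper part of the plot, from Sult1e1 at -3.41 to Cyp8b1 at 4.91.

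The plot of all genes shows that the genes called by DESeq2 were also among those with the lowest p in edgeR, although none passed its adjustment. The number of DESeq2 calls depended on single mice. Leaving out miR-Ctrl BDL mouse 4 left 2 calls and leaving out miR-Ctrl BDL mouse 1 left 10, whereas 118 genes were called without miR-Ctrl BDL mouse 2, 54 without anti-miR-873-5p BDL mouse 3 and 149 without anti-miR-873-5p BDL mouse 1. With all 4 mice of each group DESeq2 called 3 genes, Cyp2e1, Slc11a2 and Cndp2. Across the edgeR settings tried, 1 fit made a call, that of Cyp7a1 at an edgeR adjusted p of 0.0404 without anti-miR-873-5p BDL mouse 3. The refits in DESeq2 were chosen after the data were seen.

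The largest difference among the 6 livers ran within the groups and not between them. In a principal component analysis of the 500 most variable genes, the first component held 43.8% of the variance and placed anti-miR-873-5p BDL mouse 1 at 22.1, anti-miR-873-5p BDL mice 3 and 4 at -12.5 and -20.8, and miR-Ctrl BDL mice 1, 2 and 4 at 9.47, -8.37 and 10.04. The second component, with 27.7%, placed the anti-miR-873-5p BDL mice at 18.1, 6.497 and 2.803 and the miR-Ctrl BDL mice at -6.05, -0.56 and -20.8, so the groups did not overlap on it. The closest pair of livers was miR-Ctrl BDL mouse 2 and anti-miR-873-5p BDL mouse 3, at a distance of 23.6 over these genes. The most distant pair was 2 mice of the same group, anti-miR-873-5p BDL mice 1 and 4, at 46.8.

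Genes of fatty acid oxidation and PPARα targets had higher means in anti-miR-873-5p BDL in 31 of the 34 listed genes tested, with a median log2 fold change of 0.60 against 0.01 over all tested genes. Of the 34, 13 (38.2%) were higher and 0 were lower at an unadjusted p under 0.05, 14 (41.2%) were without overlap and above, and 5 were called by DESeq2. Among the genes called were Cyp4a10 and Cyp4a32, which hydroxylate the end of fatty acid chains, Cpt1a, which admits long-chain fatty acids to mitochondria, and Ech1, which handles double bonds during beta-oxidation. The list's median was 0.34 without anti-miR-873-5p BDL mouse 1 and 0.41 with all 4 mice of each group. Over all tested genes, 3.71% were higher and 2.57% lower at an unadjusted p under 0.05. Without overlap, 6.59% were above and 4.77% below. The counts of this list and of those below are to be read beside these shares.

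Cpt1a (Entrez gene 12894 on chromosome 19, GRCm38, 3322326 to 3385735) had 189.7, 193 and 204 normalized counts in miR-Ctrl BDL mice 1, 2 and 4 and 318, 269 and 321 in anti-miR-873-5p BDL mice 1, 3 and 4, so the control mice were close together and all treated mice were higher. Its log2 change was 0.63 ± 0.13 (SE), with a DESeq2 adjusted p of 0.00132. Ech1 had 128, 141 and 116 against 184, 217 and 209, again without overlap, at a log2 fold change of 0.66 ± 0.13 (SE) and a DESeq2 adjusted p of 0.00303.

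Cyp4a10 and Cyp4a32 rose in DESeq2 by larger amounts from low levels and varied more between mice. Cyp4a10 (Entrez gene 13117, chromosome 4 from 115518287 to 115533649) had 7.35, 8.31 and 3.60 normalized counts in miR-Ctrl BDL and 15.7, 86.4 and 23.8 in anti-miR-873-5p BDL. Its highest value belonged to anti-miR-873-5p BDL mouse 3, and the log2 fold change of 2.71 ± 0.69 (SE, DESeq2 adjusted p = 0.00695) was 1.62 without that mouse. Cyp4a32 had 6.25, 4.84 and 3.10 against 14.6, 32.4 and 13.9, a log2 fold change of 2.10 ± 0.41 (SE, DESeq2 adjusted p = 0.000811). Cyp4a31 ran the same way, with 7.42, 5.93 and 4.47 against 8.19, 28.2 and 16.8, and was not called. Cyp4a14 had 4.41, 5.78 and 1.87 against 2.66, 131 and 40.2, and its groups overlapped because anti-miR-873-5p BDL mouse 1 was at the level of the controls. The Cyp4a genes are near copies of each other on chromosome 4, so reads can be split between them and the values of single members are uncertain.

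Retsat encodes retinol saturase, an oxidoreductase of the endoplasmic reticulum that acts on vitamin A, and its gene lies on chromosome 6 from 72598602 to 72607488 (Entrez gene 67442). It had the lowest edgeR p of all genes. Its normalized counts were 42.5, 48.3 and 37.8 in miR-Ctrl BDL and 97.3, 120.02 and 86.2 in anti-miR-873-5p BDL. The means were 42.9 ± 5.30 and 101 ± 17.2 (SD, n = 3 each), a 2.36-fold higher mean, with a log2 fold change of 1.24 ± 0.16 (SE) and a DESeq2 adjusted p of 4.82e-07. Among members of the list that DESeq2 did not call, Acss3 of short-chain fatty acid activation had 1.18, 1.08 and 0.937 against 3.11, 3.13 and 1.78. Fgf21, a fasting hormone made by the liver, had 2.42, 1.66 and 1.95 against 5.54, 3.49 and 14.99. Ppara, the gene of the receptor itself, overlapped between groups with 66.0, 51.3 and 83.5 against 169, 73.0 and 116.

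The 2 mice left out of the table had high levels of these genes, and so did livers without ligation. A joint scaling of all 13 mice rests on genes counted identically in the 3 tables. All values of no BDL mice and of the 2 absent mice, here and below, are on the joint scaling. Single-gene values of the 6 compared mice stay on their own scaling unless the joint scaling is named, and are lower on the joint scaling. Retsat is then 34.8, 39.9 and 31.4 in miR-Ctrl BDL and 80.2, 99.6 and 71.6 in anti-miR-873-5p BDL. It ran from 139 to 253 in the 5 no BDL mice and was 324.9 in miR-Ctrl BDL mouse 3 and 305.9 in anti-miR-873-5p BDL mouse 2. All 6 mice of the comparison thus had lower Retsat than any liver without ligation, with anti-miR-873-5p BDL nearer to it. Cyp4a10 was 251 in miR-Ctrl BDL mouse 3 and 441 in anti-miR-873-5p BDL mouse 2, against 12.2 to 184 in no BDL. Cpt1a was 506 and 705 in these 2 mice, against 247 to 481. In these genes the 2 absent mice were alike and stood apart from their groups, and with all 4 mice the log2 fold change of Retsat was 0.38 ± 0.86 (SE) and that of Cyp4a10 was 1.05 ± 1.58 (SE). No other mouse of either BDL group had Retsat, Cyp4a10 or Cpt1a above its range in no BDL.

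**Figure D2:**
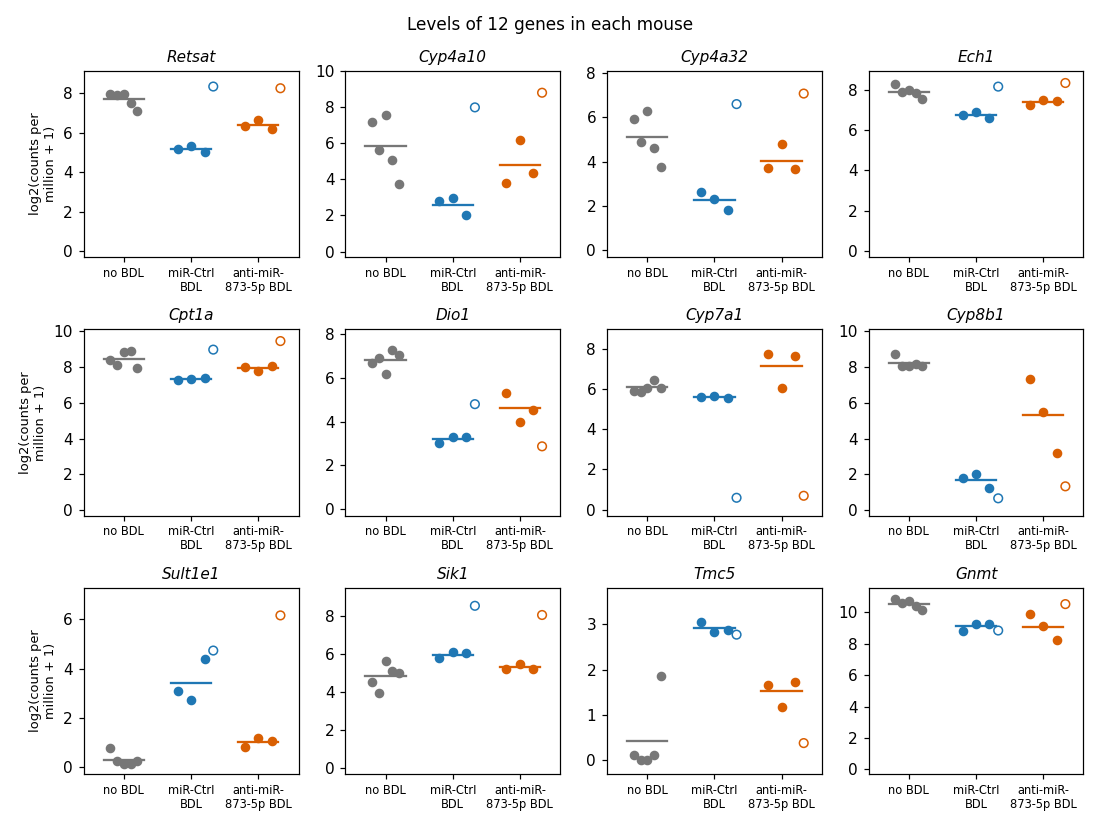
Levels of 12 genes as log2 of CPM plus 1 (y axis) in each of the 13 mice by group (x axis), on the joint scaling, with 1 point per mouse, open points for miR-Ctrl BDL mouse 3 and anti-miR-873-5p BDL mouse 2, and lines at the means of the filled points. The open points lie above the other BDL mice for Retsat, Cyp4a10, Cyp4a32, Ech1, Cpt1a and Sik1 and below them for Cyp7a1.

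The plot of 12 genes in 13 mice places each of these results beside the level in livers without ligation. It shows the PPARα targets of the 6 compared mice within or below the no BDL range, and Cyp7a1 and Cyp8b1 at low levels in both absent mice. The lower end of the no BDL range was mouse 5 for Retsat, Cyp4a10, Cyp4a32, Ech1 and Cpt1a.

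Among the genes of bile acid synthesis, the 2 hydroxylases Cyp7a1 and Cyp8b1 rose in DESeq2 in anti-miR-873-5p BDL, and 13 of 15 listed enzymes had higher means, with a median log2 fold change of 0.22. At an unadjusted p under 0.05, 2 were higher and 0 lower, and the median was -0.05 without anti-miR-873-5p BDL mouse 1 and 0.33 and 0.38 without anti-miR-873-5p BDL mice 3 and 4. Cyp7a1 (Entrez gene 13122, chromosome 4 from 6265612 to 6275632), the rate-limiting enzyme, had 58.7, 60.4 and 54.8 normalized counts in miR-Ctrl BDL and 254, 77.6 and 244 in anti-miR-873-5p BDL. The control mice lay close together, and anti-miR-873-5p BDL mouse 3 stood far below its 2 group mates but above all controls. The log2 change was 1.73 ± 0.41 (SE), with a DESeq2 adjusted p of 0.0141. On the joint scaling, Cyp7a1 ran from 57.2 to 87.4 in no BDL and from 45.6 to 49.8 in miR-Ctrl BDL mice 1, 2 and 4. All 3 controls thus lay below the livers without ligation. The treated mice ran from 64.4 to 209.5 on that scaling, and 2 of the 3 lay above the livers without ligation.

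Cyp8b1 (Entrez gene 13124, chromosome 9 from 121914356 to 121916305), which directs synthesis toward cholic acid, had 3.09, 3.76 and 1.59 in miR-Ctrl BDL and 193, 52.7 and 9.89 in anti-miR-873-5p BDL. The treated mice spanned a wide range and none reached the 262 to 427 of no BDL. Its log2 change was 4.91 ± 1.08 (SE, DESeq2 adjusted p = 0.00776), or 3.46 when anti-miR-873-5p BDL mouse 1 was left out. The absent miR-Ctrl BDL mouse 3 and anti-miR-873-5p BDL mouse 2 had 0.4999 and 0.607 of Cyp7a1 and 0.583 and 1.52 of Cyp8b1. Cyp2c70, which makes the muricholic acids of mice, went the other way, with 695, 587 and 840.1 against 537, 606 and 445, groups that overlap and a log2 fold change of -0.42.

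The transporters of bile acids did not move together. Of 18 tested, 5 had higher and 13 had lower means, with a median log2 fold change of -0.06 that was 0.04 without anti-miR-873-5p BDL mouse 4, and at an unadjusted p under 0.05 there were 2 higher and 1 lower. The uptake carriers of the sinusoidal side had higher means, Slc10a1 with 102, 108 and 141 against 249, 176 and 151, and Slco1a1 with 12.5, 4.63 and 3.39 against 40.4, 13.4 and 19.96. Neither pair of groups overlapped, and neither gene was called. The sinusoidal export subunit Slc51b had a lower mean without overlap, at 8.67, 7.23 and 13.8 against 4.78, 7.13 and 3.20. The canalicular pump Abcb11 had 486, 432 and 619 against 532, 531 and 318, with overlap.

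The bile acid receptor FXR, encoded by Nr1h4, and its target Nr0b2, a repressor of Cyp7a1, overlapped between groups. Nr1h4 had 73.4, 83.5 and 61.2 against 121, 81.9 and 121. Nr0b2 had 27.8, 25.5 and 25.2 against 15.3, 32.95 and 19.8. Among the treated mice, anti-miR-873-5p BDL mouse 3 was highest in Nr0b2 and lowest in Cyp7a1. The controls showed no such reversed order, with miR-Ctrl BDL mouse 4 lowest in both genes. A link between Nr0b2 and Cyp7a1 was not tested. Over the 17 nuclear receptors of hepatocyte metabolism, 9 had higher and 8 lower means, with a median of 0.01. Of the 17, 3 (17.6%, against 3.71% of all tested genes) were higher and 0 were lower at an unadjusted p under 0.05. Above without overlap were 3 (17.6%, against 6.59%).

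Of the other genes called higher by DESeq2, Enho, which encodes the secreted peptide adropin, had 13.5, 17.995 and 11.9 normalized counts in miR-Ctrl BDL and 30.2, 32.5 and 36.5 in anti-miR-873-5p BDL. Both groups were tight, and the log2 fold change was 1.19 ± 0.17 (SE, DESeq2 adjusted p = 2.38e-05). The absent miR-Ctrl BDL mouse 3 had 4.75 of Enho and the absent anti-miR-873-5p BDL mouse 2 had 8.80. Both lay below the lowest compared control, at 9.90 on the joint scaling, and no BDL ran from 4.27 to 47.7. Dio1, the deiodinase that activates thyroid hormone, had 8.52, 10.7 and 10.6 against 46.4, 17.7 and 26.8, a log2 fold change of 1.61 ± 0.34 (SE, DESeq2 adjusted p = 0.00776). Every BDL mouse was below the 72.0 to 156 of no BDL in Dio1. The absent miR-Ctrl BDL mouse 3 had 26.8, within the 14.7 to 38.3 of the treated mice on the joint scaling. The absent anti-miR-873-5p BDL mouse 2 had 6.30, below the lowest compared control at 6.99. Rgs16, a regulator of G protein signalling, had 4.26, 3.40 and 5.62 against 21.1, 12.9 and 9.54, a log2 fold change of 1.71 (DESeq2 adjusted p = 0.00402). The absent miR-Ctrl BDL mouse 3 and anti-miR-873-5p BDL mouse 2 had 9.08 and 8.95 of Rgs16. Both lay within the 7.91 to 17.4 of the treated mice on the joint scaling, and no BDL ran from 1.51 to 749.

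Cyp2e1, a cytochrome P450 of hepatocytes around the central vein, had 611, 1120.3 and 872 against 2263, 1556 and 1643, a 2.10-fold higher mean without overlap (DESeq2 adjusted p = 0.0375). It was also called higher by DESeq2 with all 4 mice of each group, where miR-Ctrl BDL mouse 3 had 718 and anti-miR-873-5p BDL mouse 2 had 1605 and all BDL livers lay below the 3626 to 8015 of no BDL. The arachidonic acid epoxygenase Cyp2c23 had 181, 198 and 161 against 304, 278 and 247. Plekha6, one of the messages with a seed match, had 36.2, 41.7 and 36.0 against 54.3, 57.9 and 55.7. Also called higher were Sbk1, Abca8a, Hykk, 0610031O16Rik and C730036E19Rik, with log2 fold changes from 0.74 for Abca8a to 1.29 for C730036E19Rik. Among the genes named for a low edgeR p that DESeq2 did not call, Tnxb and Fbln5 of the extracellular matrix and Banp and Bhlhb9 had higher means, with log2 fold changes of 0.69, 0.89, 0.70 and 1.08.

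The genes called lower by DESeq2 held a mixed set of functions. Sult1e1 (Entrez gene 20860, chromosome 5 from 87575968 to 87591611), the estrogen sulfotransferase, had 9.18, 6.65 and 24.2 normalized counts in miR-Ctrl BDL and 0.911, 1.53 and 1.30 in anti-miR-873-5p BDL, where the level was close to the 0.0822 to 0.691 of no BDL. Its mean was 10.6-fold lower, with a log2 fold change of -3.41 ± 0.56 (SE, DESeq2 adjusted p = 4.82e-07). The absent anti-miR-873-5p BDL mouse 2 had 70.7, the highest value of all 13 mice, and miR-Ctrl BDL mouse 3 had 25.6. With all 4 mice the log2 fold change of Sult1e1 was 0.34 ± 1.36 (SE), the opposite direction.

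Tmc5, a member of the transmembrane channel-like family, had 8.82, 7.37 and 7.64 against 2.66, 1.53 and 2.78, a log2 fold change of -1.76 ± 0.25 (SE, DESeq2 adjusted p = 4.92e-06). Here the absent mice lay with their groups, at 5.83 in miR-Ctrl BDL mouse 3 and 0.304 in anti-miR-873-5p BDL mouse 2, and with all 4 mice the value was -2.04 ± 0.46 (SE, edgeR adjusted p = 0.980). Golm1, a Golgi membrane protein that is raised in injured liver, had 36.0, 39.4 and 38.5 against 19.96, 22.3 and 27.5, while no BDL ran from 1.64 to 4.69. Golm1 was thus between the level of the 3 compared controls and the unligated level in all 3 treated mice, with a log2 fold change of -0.70 ± 0.13 (SE, DESeq2 adjusted p = 0.0201). The absent miR-Ctrl BDL mouse 3 had 11.5 and the absent anti-miR-873-5p BDL mouse 2 had 9.87. Both lay below the 16.4 to 22.9 of the compared treated mice on the joint scaling.

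Sik1, a salt-inducible kinase and a message with a seed match, had 66.4, 82.7 and 78.6 against 44.8, 53.03 and 43.7, a log2 fold change of -0.69 ± 0.13 (SE, DESeq2 adjusted p = 0.0141). The absent mice had 377 and 269 of Sik1, above all others. Slpi, a secreted protease inhibitor, had 55.0, 58.9 and 62.6 against 22.4, 27.8 and 41.0. Lpl, the lipase of circulating triglyceride, had 183, 187 and 214 against 112, 137 and 134. Slc11a2, an iron transporter, and Arpc1b, a subunit of the actin-branching complex, were also called, with log2 fold changes of -0.66 and -0.52. Lrtm2 and the sodium channel gene Scn8a completed the 10, from means of 4.89 and 5.38 normalized counts in the controls, and Lrtm2 was the highest of all mice, at 25.8, in the absent anti-miR-873-5p BDL mouse 2. Uxs1, Cndp2, Btg3, 4930447K03Rik and Impact had lower means at low p without being called, and Uxs1, a sugar nucleotide enzyme with a seed match, had 16.02, 15.6 and 18.02 against 10.55, 11.8 and 11.8.

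Genes induced by interferon had lower means in 34 of 35 cases, with a median log2 fold change of -0.78. Of the 35, 4 (11.4%, against 2.57% of all tested genes) were lower at an unadjusted p under 0.05. Below without overlap was 1 (2.86%, against 4.77%). No gene of the list was called by either test. The median was -0.27 without miR-Ctrl BDL mouse 4 and -0.47 without miR-Ctrl BDL mouse 1, and the list's level differed by a standard deviation of 0.60 between mice of a group. Cxcl10, which attracts T cells and is counted in the chemokine list too, had 19.2, 17.3 and 62.3 normalized counts in miR-Ctrl BDL and 6.07, 14.6 and 9.95 in anti-miR-873-5p BDL. The groups did not overlap, but miR-Ctrl BDL mouse 4 stood well above its group mates, and the log2 fold change of -1.69 ± 0.56 (SE) became -0.84 without it. Irf7, a transcription factor of the interferon answer, had 286, 124 and 222 against 76.7, 146 and 129, with overlap.

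Of the 18 chemokine genes tested, 15 had lower means, with a median of -0.56, and 3 were lower and 1 was higher at an unadjusted p under 0.05. The median was -0.17 without miR-Ctrl BDL mouse 2 and -0.22 without anti-miR-873-5p BDL mouse 1. The higher gene was Cxcl12, a chemokine made by stromal cells in the steady state, with 160.2, 174 and 211 against 235, 251 and 257. Ccl2, which recruits monocytes, had 16.7, 39.6 and 29.2 against 6.07, 32.8 and 20.02, a log2 fold change of -0.54 ± 0.56 (SE) with overlap. Inflammatory cytokines and sensors had lower means in 17 of 20 cases, with a median of -0.30 that was -0.14 without anti-miR-873-5p BDL mouse 1, -0.56 without miR-Ctrl BDL mouse 1 and -0.45 without anti-miR-873-5p BDL mouse 4, and Tnf had 1.18, 2.602 and 3.03 against 1.06, 2.33 and 2.25. The acute-phase protein Saa1 had 535, 1761 and 3957 against 779, 1013 and 805, so the spread among the controls covered all treated mice, and 11 of the 24 acute-phase genes had higher means.

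Markers of immune cells had lower means for the most part, without a call in any list. The 13 Kupffer cell genes all had lower means, with a median of -0.30, none past an unadjusted p of 0.05 and none without overlap. Marco, a scavenger receptor of Kupffer cells, had 154, 494 and 187 against 40.7, 72.9 and 234, where anti-miR-873-5p BDL mouse 4 lay above 2 controls. On the joint scaling the mean level of the list, relative to no BDL, was 1.28, 2.36 and 2.05 in miR-Ctrl BDL and 0.65, 1.41 and 2.12 in anti-miR-873-5p BDL, so the groups overlapped. The median of the Kupffer cell list ran from -0.73 without anti-miR-873-5p BDL mouse 4 to -0.08 without anti-miR-873-5p BDL mouse 1, and was -0.58 and -0.10 without miR-Ctrl BDL mice 1 and 2. Genes of recruited macrophages had lower means in 13 of 14 cases, with a median of -0.31 that was -0.06 without anti-miR-873-5p BDL mouse 1, -0.13 without miR-Ctrl BDL mouse 2 and -0.64 without anti-miR-873-5p BDL mouse 4. Neutrophil genes had lower means in 7 of 11 cases, with a median of -0.17 whose sign depended on single mice. It was 0.68 without miR-Ctrl BDL mouse 4, 0.22 without anti-miR-873-5p BDL mouse 3 and 0.03 without anti-miR-873-5p BDL mouse 1, but -0.69 without anti-miR-873-5p BDL mouse 4, -0.39 and -0.34 without miR-Ctrl BDL mice 1 and 2, and -1.74 with all 4 mice of each group. Antigen presentation genes of MHC class II had lower means in 8 of 9 cases, with a median of -0.15 that turned to 0.16 without miR-Ctrl BDL mouse 4 and to 0.06 without anti-miR-873-5p BDL mouse 1, and was -0.42 without miR-Ctrl BDL mouse 1 and -0.38 without anti-miR-873-5p BDL mouse 3. T and NK cell genes had lower means in 7 of 9 cases, with a median of -0.59 that was -0.01 without miR-Ctrl BDL mouse 4, -0.39 without anti-miR-873-5p BDL mouse 1 and -0.94 without miR-Ctrl BDL mouse 1. Most defining T cell and NK cell genes, among them Cd3d, Cd3e and Ifng, were below the count filter, and so were 4 of the 8 listed B cell genes. Whether a smaller share of immune cells takes part in the lower interferon and chemokine values was not tested.

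Cell cycle genes had lower means in 39 of 40 cases, with a median log2 fold change of -0.65, and 6 were lower at an unadjusted p under 0.05. Plk1, the mitotic kinase, had 17.9, 4.91 and 10.2 normalized counts in miR-Ctrl BDL and 5.01, 3.42 and 4.80 in anti-miR-873-5p BDL. The controls varied widely, and their lowest mouse lay within the treated range, so the groups overlapped. No gene of the list was without overlap. Cdc20, which activates the anaphase ligase, had 33.1, 10.2 and 18.8 against 12.5, 5.46 and 8.53. Ccnd1, the G1 cyclin, had 176, 99.7 and 268 against 163, 151 and 169.6. Without miR-Ctrl BDL mouse 1 the median of the list was -0.36, and without miR-Ctrl BDL mouse 2 it was -0.96.

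Targets of NRF2, the transcription factor of the antioxidant response, had lower means in all 21 cases, with a median of -0.79. Of these, 7 (33.3%, against 2.57% of all tested genes) were lower at an unadjusted p under 0.05. Below without overlap were 3 (14.3%, against 4.77%). Srxn1, which repairs oxidized peroxiredoxins, had 644, 267 and 454 against 238, 134 and 94.4, a log2 fold change of -1.55 ± 0.42 (SE) and a DESeq2 adjusted p of 0.0586. Its groups did not overlap, and anti-miR-873-5p BDL mouse 1 came nearest to the lowest control. The glutathione reductase Gsr had 158, 106 and 161 against 104, 73.6 and 74.8, and the cystine carrier Slc7a11 had 46.3, 31.6 and 45.2 against 31.0, 25.02 and 28.7. In the abundant transferase Gstm1 the order of mice was 8945, 4074 and 9755 against 7878, 3125 and 2124. miR-Ctrl BDL mouse 2 stood below its group mates in each of these 4 genes, and anti-miR-873-5p BDL mouse 1 above its own. The list's level followed the same order, and its median ran from -0.55 without miR-Ctrl BDL mouse 1 to -1.21 without anti-miR-873-5p BDL mouse 1. Relative to no BDL, the list's level was 0.225 in the absent miR-Ctrl BDL mouse 3 and 0.399 in the absent anti-miR-873-5p BDL mouse 2. Both lay below the 0.517 to 1.615 of the treated mice and the 1.249 to 2.115 of the controls. With all 4 mice of each group the median was -0.68.

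Matrix and bile duct genes had higher means in anti-miR-873-5p BDL in most cases, in the direction opposite to the inflammatory lists. All 15 collagen genes had higher means, with a median log2 fold change of 0.43, which was 0.24 and 0.69 without miR-Ctrl BDL mice 4 and 2. At an unadjusted p under 0.05, 1 of them was higher (6.67%, against 3.71% of all tested genes). The same number was above without overlap (6.67%, against 6.59%). That gene was Col14a1, a collagen found on fibril surfaces, with 37.3, 52.5 and 36.2 normalized counts in miR-Ctrl BDL and 57.1, 55.6 and 75.1 in anti-miR-873-5p BDL. Col1a1, the main fibrillar collagen of scars, had 117, 184 and 94.5 against 140.2, 212 and 251, with overlap, a log2 fold change of 0.61 ± 0.30 (SE) and an edgeR adjusted p of 0.781. The level in no BDL was 3.24 to 11.2, far below all 6 mice. Genes of stellate cells and myofibroblasts had higher means in 22 of 28 cases, with a median of 0.19 that ran from 0.03 without anti-miR-873-5p BDL mouse 4 to 0.41 without miR-Ctrl BDL mouse 2, and 3 were higher at an unadjusted p under 0.05. The matrix protease Mmp2 had 12.6, 19.4 and 13.5 against 16.6, 37.2 and 33.2, and Acta2, the smooth muscle actin of myofibroblasts, had 13.7, 13.1 and 9.01 against 9.71, 12.5 and 17.2.

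Of 18 cholangiocyte and ductular reaction genes, 16 had higher means, with a median of 0.41, or 0.24 without mouse 3 and 0.62 without mouse 1 of anti-miR-873-5p BDL, and 1 was higher at an unadjusted p under 0.05. That was the keratin gene Krt23, with 6.83, 8.53 and 4.83 against 11.7, 11.3 and 9.30 and no overlap. The duct markers Epcam and Krt19 overlapped, Epcam with 11.2, 10.8 and 8.36 against 9.71, 24.5 and 15.99 and Krt19 with 10.7, 12.7 and 14.5 against 8.73, 22.8 and 16.6. In both, anti-miR-873-5p BDL mouse 1 was within or below the range of the controls and mice 3 and 4 were above them. The same split of mouse 1 from mice 3 and 4 was seen in the level of the whole duct list and of the collagens. Spp1, which duct cells secrete in ligated livers, had 1393, 2012 and 1294 against 1442, 1489 and 1931. Hepatocyte identity genes had higher means in 15 of 20 cases with a median of 0.16, or -0.02 without anti-miR-873-5p BDL mouse 1 and 0.10 without miR-Ctrl BDL mouse 1, and Alb had 66249, 42622 and 76958 against 55595, 52513 and 36824, with overlap.

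**Figure D3:**
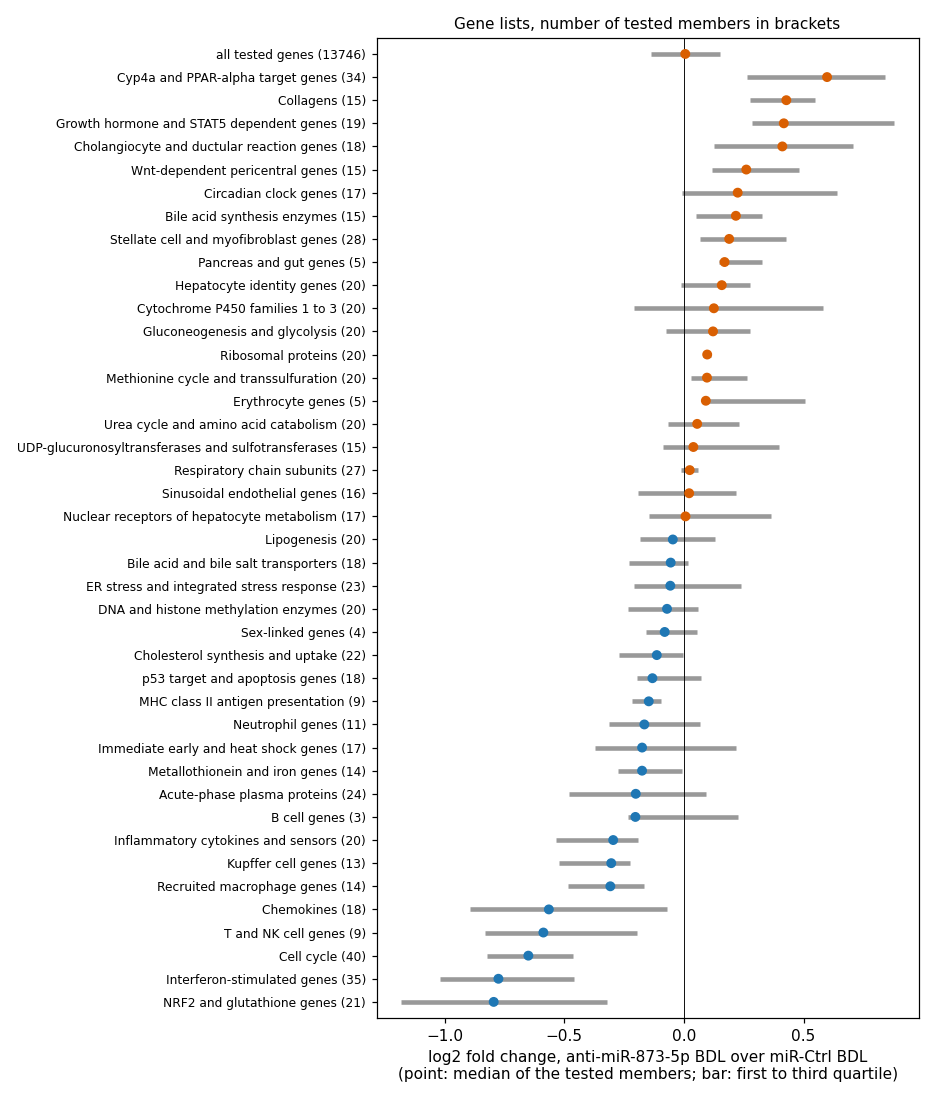
Median log2 fold change of anti-miR-873-5p BDL over miR-Ctrl BDL (points, x axis) for 41 gene lists and for all tested genes (rows), with bars from the first to the third quartile of the tested genes of a list and points orange above 0 and blue below. The list of Cyp4a and PPARα targets is highest at 0.60 and that of NRF2 and glutathione genes lowest at -0.79.

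The plot of list medians shows 20 of the 41 medians above 0. These lists were chosen with results of these data known, and their genes share the same 6 livers, so the medians describe the livers and are not independent of each other.

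**Figure D4:**
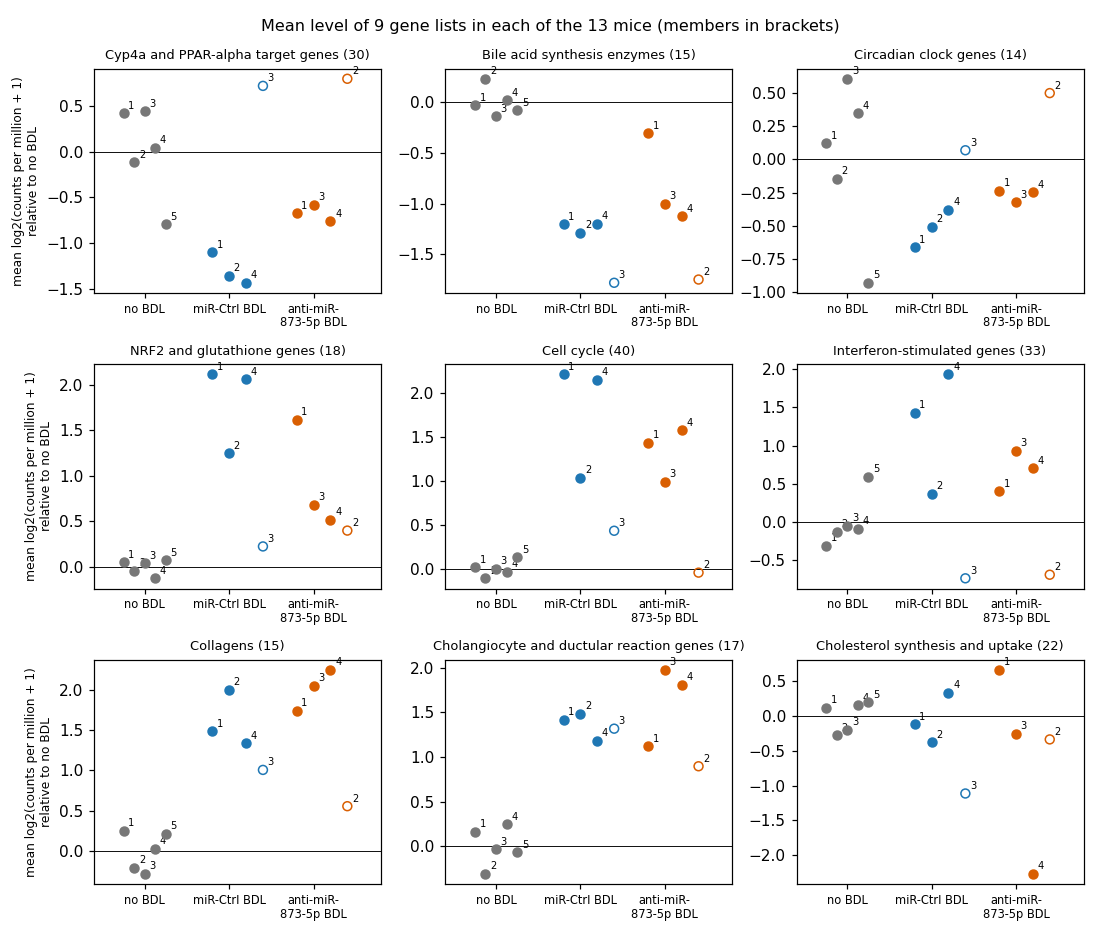
Mean level of the genes in 9 lists (y axis, mean of log2 of CPM plus 1, relative to the mean of the 5 no BDL mice) in each of the 13 mice by group (x axis), with 1 numbered point per mouse and open points for miR-Ctrl BDL mouse 3 and anti-miR-873-5p BDL mouse 2. The PPARα list lies below 0 in the 6 compared BDL mice and above 0 in both open points.

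The plot of list levels by mouse sets the BDL livers beside livers without ligation. For the list of Cyp4a and PPARα targets the level was -1.10, -1.36 and -1.44 in miR-Ctrl BDL mice 1, 2 and 4 and -0.68, -0.58 and -0.76 in anti-miR-873-5p BDL mice 1, 3 and 4, where no BDL ran from -0.79 to 0.44. The absent mice had 0.72 and 0.80, above every no BDL liver. For cell cycle genes the level was 2.22, 1.04 and 2.15 against 1.44, 0.99 and 1.58, and the absent miR-Ctrl BDL mouse 3 and anti-miR-873-5p BDL mouse 2 had 0.43 and -0.05. For collagens it was 1.48, 2.00 and 1.34 against 1.74, 2.05 and 2.25, with 1.01 and 0.56 in the absent mice. The absent mice were thus nearer to unligated livers in proliferation and collagen than the other BDL mice. In the acute-phase list, miR-Ctrl BDL mouse 3 was the highest of all 13 mice at 3.13. There no BDL mouse 5 had 2.09, while the other no BDL mice ran from -0.65 to -0.39.

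Gnmt, the reported target of miR-873-5p, had 553, 727 and 748 normalized counts in miR-Ctrl BDL and 1136, 679 and 364 in anti-miR-873-5p BDL. The treated mice reached both above and below all controls, and the log2 fold change was 0.10 ± 0.38 (SE). The annotated 3′ UTR of Gnmt, of 136 bases, held no seed match of any of the kinds defined below. Of 20 genes of the methionine cycle and transsulfuration, 16 had higher means with a median of 0.10, which was -0.01 without anti-miR-873-5p BDL mouse 1, 0.21 without anti-miR-873-5p BDL mouse 4 and 0.16 without miR-Ctrl BDL mouse 4, and 1 was higher at an unadjusted p under 0.05. Mat1a, which makes S-adenosylmethionine in the adult liver, had 746, 1912 and 1460.3 against 1902, 2306 and 2388, with overlap. Sardh and Dmgdh remove the methyl groups of sarcosine and dimethylglycine, and both had higher means without overlap. Sardh had 403, 439.9 and 407 against 751, 554 and 494, and Dmgdh had 335, 355 and 315 against 399.7, 417 and 391, with log2 fold changes of 0.53 and 0.26. Enzymes that methylate DNA and histones had a median of -0.07 over 20 genes, with 0 past an unadjusted p of 0.05 in edgeR's test, 0 called by DESeq2 and 1 without overlap. Dnmt1, the maintenance DNA methyltransferase, had 30.1, 22.8 and 32.002 against 22.6, 22.4 and 24.8, and Dnmt3a had 24.3, 28.8 and 20.8 against 23.3, 21.1 and 24.8.

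Output genes of the circadian clock had higher means in part. Of 17 clock genes 11 had higher means, with a median of 0.22, 4 at an unadjusted p under 0.05 and 2 without overlap. Tef, a clock-driven transcription factor, had 54.8, 71.8 and 85.3 against 132, 94.1 and 126, without overlap. Dbp, its relative, had 18.8, 18.5 and 36.8 against 95.6, 29.97 and 63.4, and here 1 control lay above anti-miR-873-5p BDL mouse 3. In livers without ligation Dbp ran from 2.31 to 214, so the range within 1 group was wider than the difference. The median of the clock list was 0.08 without miR-Ctrl BDL mouse 1 and 0.36 without anti-miR-873-5p BDL mouse 3, and the labels give no time of day for the collection of livers.

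Genes that depend on growth hormone and STAT5 had higher means in 17 of 19 cases, with a median of 0.42 that was -0.04 without anti-miR-873-5p BDL mouse 1 and 0.64 without miR-Ctrl BDL mouse 2, and 2 were higher at an unadjusted p under 0.05. Igfals, which carries insulin-like growth factor in blood, had 48.3, 56.9 and 44.5 against 63.0, 74.8 and 62.3. Cytochrome P450 genes of families 1 to 3 had higher means in 11 of 20 cases with a median of 0.13, which was -0.15 without anti-miR-873-5p BDL mouse 1, 0.08 without miR-Ctrl BDL mouse 1, 0.19 without anti-miR-873-5p BDL mouse 3 and 0.25 without anti-miR-873-5p BDL mouse 4, and 5 were higher at an unadjusted p under 0.05. Cyp2c37 had 39.5, 58.2 and 41.3 against 90.6, 89.8 and 53.1, and Cyp2c54 had 30.1, 51.2 and 26.1 against 82.1, 83.0 and 43.7, both overlapping through anti-miR-873-5p BDL mouse 4 and miR-Ctrl BDL mouse 2. These cytochromes are close paralogs, and their values are uncertain for that reason. Nr1i3, the receptor CAR that drives several of them, had 62.9, 73.2 and 72.9 against 78.1, 102 and 117. The pericentral genes had higher means in 14 of 15 cases with a median of 0.26, or 0.04 without anti-miR-873-5p BDL mouse 1, and 9 of 15 glucuronosyl- and sulfotransferases had higher means. Of these transferases, 3 (20%, against 3.71% of all tested genes) were higher and 0 were lower at an unadjusted p under 0.05. Above without overlap were 3 (20%, against 6.59%). The median of the transferases was 0.04, or -0.29 without anti-miR-873-5p BDL mouse 1.

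Lipid synthesis genes varied between mice more than between the groups. Scd1, the desaturase that makes oleate, had 11319, 2073 and 13495 normalized counts in miR-Ctrl BDL and 23578, 431 and 118 in anti-miR-873-5p BDL. The highest and the lowest liver were thus both in the treated group, and the log2 fold change of -0.16 had a standard error of 1.65. The list of lipogenic genes had a standard deviation between mice of a group of 1.07 on the log2 scale, with 7 of 20 higher means and a median of -0.05. This median was -1.16 without anti-miR-873-5p BDL mouse 1 and 0.31 without anti-miR-873-5p BDL mouse 4. Cholesterol synthesis genes varied as much, with a standard deviation of 1.10, 17 of 22 lower means and a median of -0.11 that was -0.93 without anti-miR-873-5p BDL mouse 1 and 0.36 without anti-miR-873-5p BDL mouse 4. In both lists the sign of the median thus depended on single mice.

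The other lists had medians between -0.20 and 0.17 over the 6 mice, and most of these medians moved when single mice were left out. The medians were 0.02 over 27 respiratory chain subunits, 0.10 over 20 ribosomal proteins, all with higher means, 0.06 over 20 genes of the urea cycle and amino acid catabolism and 0.12 over 20 genes of gluconeogenesis and glycolysis. They were 0.02 over 16 sinusoidal endothelial genes, -0.17 over 14 metallothionein and iron genes, -0.06 over 23 genes of the stress of the endoplasmic reticulum, -0.17 over 17 immediate early and heat shock genes and -0.13 over 18 genes of the p53 and apoptosis list. In the iron list DESeq2 called Slc11a2. B cell genes (3 tested), erythrocyte genes (5) and pancreas and gut genes (5) had medians of -0.20, 0.09 and 0.17, the 4 sex-linked genes tested had a median of -0.08, and of the listed pancreatic genes Cpa1, Cpb1, Pnlip and Ins2 had no read in any of the 6 mice. Without anti-miR-873-5p BDL mouse 1 the median was -0.75 for erythrocyte genes, -0.14 for respiratory chain subunits, -0.11 for the urea cycle and amino acid catabolism, 0.11 for stress of the endoplasmic reticulum, -0.01 for metallothionein and iron genes, 0.03 for gluconeogenesis and glycolysis and -0.05 for B cell genes. Without anti-miR-873-5p BDL mouse 4 it was -0.17 for sinusoidal endothelial genes, -0.29 for stress of the endoplasmic reticulum, 0.33 for erythrocyte genes and 0.05 for sex-linked genes, and without anti-miR-873-5p BDL mouse 3 it was 0.45 for erythrocyte genes. The erythrocyte median was -0.03 and the B cell median 0.15 without miR-Ctrl BDL mouse 4. The endothelial median was -0.11 without miR-Ctrl BDL mouse 1 and 0.25 without miR-Ctrl BDL mouse 2, and the latter gave 0.01 for metallothionein and iron genes. With all 4 mice of each group the median of the urea cycle list was 0.46. The ribosomal proteins kept a median above 0 whichever mouse was left out, from 0.04 to 0.14.

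Messages with a seed match to miR-873-5p had median log2 fold changes close to those of messages without one. Letters define 4 kinds of match in a 3′ UTR, on the sense strand, each gene being put in the first kind it holds: GTTCCTG followed by A (the 8mer), GTTCCTG alone (the 7mer-m8), TTCCTGA (the 7mer-A1) and TTCCTG (the 6mer). The letters of each shorter kind lie within those of the 8mer. Of 13029 tested genes with an annotated 3′ UTR in GENCODE, 16.4% held an 8mer or 7mer-m8 and 4.11% held an 8mer. The median log2 fold change was 0.0023 over 536 genes with an 8mer, -0.0008 over 1606 with a 7mer-m8, -0.0082 over 1483 with a 7mer-A1, 0.0001 over 3232 with a 6mer and 0.0069 over 6172 with no match.

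The difference of medians between genes with an 8mer or 7mer-m8 and genes with no match was -0.0074. This difference ran from -0.0192 to 0.0136 when single mice were left out and was -0.0081 with all 4 mice of each group. For scale, the mean log2 level of the former genes relative to the latter had a standard deviation of 0.0289 between mice of a group. That is a spread of single mice in mean levels and not the spread of the difference of medians. Genes with a match had longer 3′ UTRs, with a median of 2297.5 bases for the 8mer and 583 without a match. Within the third of genes with the longest 3′ UTRs, the medians were 0.0023 over 1338 genes with an 8mer or 7mer-m8 and 0.0127 over 721 with no match. Of the 8mer genes, 14 were higher and 18 lower at an unadjusted p under 0.05. Only RNA levels were measured, so effects on translation are outside these values, and the longest annotated 3′ UTR of a gene need not be the one used in liver.

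**Figure D5:**
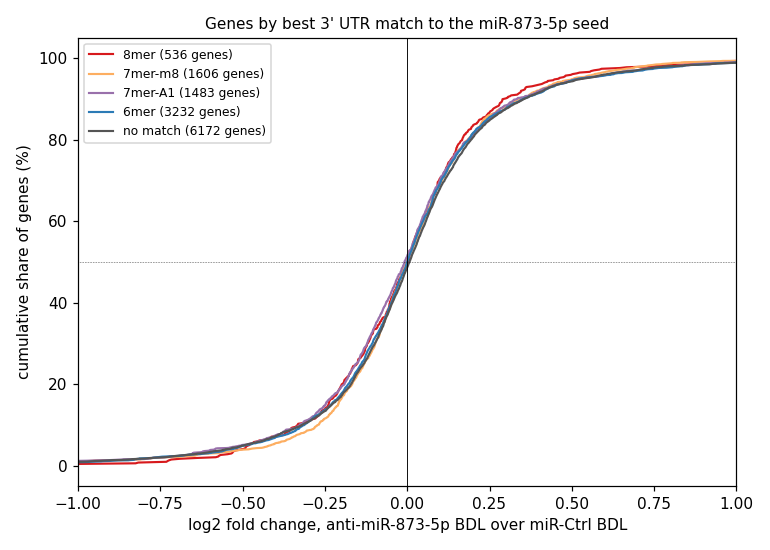
Cumulative share of genes in percent (y axis) by log2 fold change of anti-miR-873-5p BDL over miR-Ctrl BDL (x axis), with 1 line per kind of seed match to miR-873-5p in the 3′ UTR (536 genes with an 8mer, 1606 with a 7mer-m8, 1483 with a 7mer-A1, 3232 with a 6mer and 6172 with no match). The lines lie nearly on each other and cross the middle close to a log2 fold change of 0.

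The plot of seed groups shows the 5 kinds of genes with closely similar distributions. Among the genes named above, those holding GTTCCTG lay on both sides of 0, with log2 fold changes of 1.73 for Cyp7a1, 0.63 for Cpt1a, 0.56 for Plekha6, -0.54 for Uxs1 and -0.69 for Sik1.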

How the data were processed

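RNA of whole liver from 13 mice was sequenced from TruSeq libraries on a HiScanSQ. The authors trimmed and mapped the reads to mm10 with TopHat and deposited the counts as raw whole numbers for each Entrez gene in 3 tables, 1 for each pair of groups. CASAVA 1.8.2, FastQC, Trim Galore and DESeq2 are named in the submitters' processing notes, and the counting program and its annotation are not given in the sources used here. All columns were used (0 left out). The kit does not mark strand, so reads of overlapping genes on opposite strands cannot be told apart.

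Groups came from the sample labels. The table compared here lists 23725 genes, and 23666 had a symbol. Genes were filtered with edgeR's filterByExpr, scaled by TMM and tested by edgeR's quasi-likelihood method, adjusted after Benjamini and Hochberg (R 4.3.3, edgeR 4.0.16, limma 3.58.1, DESeq2 1.42.0), 3 mice against 3. A standard error (SE) is the size of the log2 fold change over the root of its F statistic. Joint levels of 13 mice rest on 22246 genes counted identically in all 3 tables. List levels are means of log2 of CPM with a pseudocount of 1. On 13746 genes simulated for 3 mice against 3, of which 200 were changed, edgeR recovered 33% at a log2 change of 1 and 88.5% at 2, and 9.59% and 3.28% of the genes it called were unchanged. For DESeq2 the shares recovered were 61.5% and 93.5%, and the unchanged shares among calls were 23.1% and 14.6%.

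Named genes were the 15 with the lowest edgeR p in each direction among those with a mean of at least 20 counts and no overlap of groups, every DESeq2 call, in each list up to 3 members of lowest p and the most abundant one, and genes the study measured, except for results that are not reported here. Genes below the count filter that are named for their low counts were chosen after their values were seen. The comparison, the lists and the named genes were chosen with earlier results of these data known. Alternatives were total counts or DESeq2 size factors for scaling, DESeq2, limma voom, 2 other filters on low counts, all 13 mice in 1 fit, all 4 mice of each BDL group, mouse number as a block, an adjusted p of 0.1 and leaving out each mouse. The refits of DESeq2 with other sets of mice were added after the data were seen. Single mice far from their group were sought with Dixon's test. Coordinates, microRNA and 3′ UTR sequences are of GRCm38, the microRNA from RefSeq and the UTRs, the longest of each gene, from GENCODE.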

Additional observations from a re-analysis of the deposited data

Results flagged for a closer look

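In 45 groups of 4 or 5 mice, 19 had a highest or lowest mouse far from the others by Dixon's test. The groups were taken gene by gene for 15 of the genes described above, on the joint scaling of 13 mice. Most of the mice flagged were the 2 mice absent from the comparison. Most of these genes were chosen for a low p or a DESeq2 call in the comparison without those 2 mice. Such a choice favours genes whose remaining mice lie close together. The table that lacks the 2 mice is also labelled as without outliers. The test's chance rate of about 1 in 20 groups is therefore no reference for the 19, and no excess is read from them. In CPM, miR-Ctrl BDL mouse 3 and anti-miR-873-5p BDL mouse 2 stood above their groups with 324.9 and 305.9 for Retsat, 251.1 and 441.3 for Cyp4a10, 95.98 and 133.9 for Cyp4a32, 283.5 and 321.1 for Ech1, 505.8 and 705 for Cpt1a and 377.4 and 269.5 for Sik1. miR-Ctrl BDL mouse 3 was also below its group with 0.4999 for Cyp7a1 and 11.5 for Golm1 and above it with 26.83 for Dio1. anti-miR-873-5p BDL mouse 2 had 70.72 for Sult1e1. Among the mice without ligation, mouse 5 was high for Tmc5 at 2.624, and mouse 1 was high for Cyp8b1 at 426.5 and for Sult1e1 at 0.6911. What sets these mice apart was not tested.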

How the results depend on the processing

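The count of genes past the adjusted p of 0.05 was 0 in edgeR under every scaling, filter and set of mice tried except 1 fit without a mouse, 29 in DESeq2 and 3 in DESeq2 with all 4 mice of each group. With 1 mouse left out it ran from 0 in edgeR to 149 in DESeq2. The count at an unadjusted p under 0.05 was 503 with all 4 mice, and with 1 mouse left out it ran from 500 to 1380 in edgeR and from 466 to 1147 in DESeq2. The labels do not state that equal numbers pair the mice. The groups share 2 numbers, and the correlations of their deviations were 0.35 and -0.02. The former was the highest among all pairs of a control and a treated mouse, and so few pairs cannot decide the question. With mouse number as a block, 0 genes were called and 1009 were at an unadjusted p under 0.05, or 415 with all 4 mice. The lowest edgeR adjusted p was 0.119 with the block, and 0.9998 with the block and all 4 mice. The block turned Krt19 to -0.0394 and Dnmt3a to 0.0959. With the block and all 4 mice Lrtm2 was 0.1243, Nr0b2 0.1844 and Dnmt3a 0.0167. In 1 fit of 13 mice and with all 4 mice of each group the direction turned for Sult1e1 (0.3215 and 0.3372), Lrtm2 (1.1695 and 1.1788) and Nr0b2 (0.4016 and 0.4078), and in limma voom for Gnmt (-0.0131). With 1 mouse left out, log2 fold changes crossed 0 for Gnmt (-0.3760 to 0.4248), Abcb11 (-0.2749 to 0.0524), Nr0b2 (-0.5782 to 0.0068), Tnf (-0.5731 to 0.0092), Adgre1 (-0.6788 to 0.0215), Ccnd1 (-0.4661 to 0.2220), Acta2 (-0.1006 to 0.3179), Spp1 (-0.0964 to 0.2689), Dnmt3a (-0.2047 to 0.0303) and Scd1 (-5.0299 to 0.4208). The cause was not tested. The other 87 of 100 named genes kept their direction in every setting. Of the 29 DESeq2 calls, 25 of the 27 fitted with all 4 mice had the same direction, 10 of them at an unadjusted p under 0.05 in edgeR. Medians of 20 of the 41 lists kept their sign in every setting. At an adjusted p of 0.1 edgeR called 0 and DESeq2 48. With 3 mice per group, changes of the size of the median standard error, 0.18, cannot be read.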
